A study of Mus musculus with 12 samples.

Results

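The genes described here, 10 in all, carry interferon signals from the cell surface to the nucleus or switch those signals off. They were followed in the mouse mammary carcinoma line 4T1, which derives from the BALB/c strain. They are the receptor chains Ifngr1, Ifngr2, Ifnar1 and Ifnar2, the kinases Jak1, Jak2 and Tyk2, the feedback inhibitors Socs1 and Socs3, and the phosphatase Ptpn2. They were taken by gene symbol from a table of 22298 genes. All 10 passed the low-count filter, which left 11904 genes for testing. RNA was sequenced in 6 groups of 2 libraries each. Cells with Cop1 sgRNA1, Cop1 sgRNA2 or a guide to Rosa26, a locus commonly used as a neutral site, received interferon gamma (IFNγ, 20 ng/ml over 24 hours) or vehicle. All groups share the 4T1 background and a guide RNA, so no group here is free of editing reagents. The sources used here do not say where in Cop1 the guides cut, whether the populations were pools or clones, or whether the 2 libraries of a group came from separate cultures. P-values therefore measure the spread between these libraries, which may be technical.

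IFNγ binds a receptor built of Ifngr1, which holds the ligand and docks Jak1, and Ifngr2, which brings Jak2. Type I interferons use Ifnar1, which docks Tyk2, and Ifnar2, which docks Jak1. The kinases phosphorylate the receptor tails and STAT proteins, whose dimers bind GAS elements, while a complex of STAT proteins with IRF9 binds ISRE elements. Socs1 and Socs3 are themselves STAT targets and inhibit the kinases that induced them. Ptpn2 removes phosphate from JAK and STAT proteins. Cop1 encodes the substrate-binding part of a ubiquitin ligase whose known substrates include c-Jun and C/EBP transcription factors. The design asks how cells with a Cop1 guide and cells with a Rosa26 guide differ in their response to IFNγ.

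Library totals lay between 19378070 and 32609717 counts. Beyond counting noise, replicates varied by 3.21% (coefficient of variation), so small changes pass the test. Levels are given as CPM, counts scaled to library totals after TMM normalization, and log2 changes carry their standard error. A change was called at an adjusted p under 0.05, from the quasi-likelihood test of edgeR, adjusted over all genes tested after Benjamini and Hochberg. Cop1 loss stands for the mean of the sgRNA1 and sgRNA2 groups. Cop1 itself had 60.7 and 60.2 CPM with sgRNA1, 32.3 and 33.6 CPM with sgRNA2 and 80.4 and 83.3 CPM in Rosa26 cells under IFNγ. In vehicle the values were 59.1 and 63.1 CPM with sgRNA1, 34.5 and 34.8 CPM with sgRNA2 and 89.7 and 98.2 CPM in Rosa26 cells. The residual transcript was thus higher with sgRNA1 than with sgRNA2, and protein was not measured, so Cop1 loss here names the guides and not a measured absence of the protein. Epithelial markers summed to between 2184 and 3143 CPM per library, with only Krt5 of 7 at 0, whereas 9 leukocyte markers summed to between 7.017 and 12.84 CPM with Cd3e, Adgre1 and Nkg7 at 0 in every library. The 8 fibroblast and endothelial markers summed to between 16.4 and 24.74 CPM.

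After Cop1 loss IFNγ raised the inhibitors, Ptpn2 and 1 receptor chain, with small rises of Jak1 and Jak2, and in Rosa26 cells it raised the inhibitors, Ptpn2 and that receptor chain. After Cop1 loss 6 of the 10 genes rose with IFNγ (Ifnar2, Jak1, Jak2, Socs1, Socs3 and Ptpn2) and 2 fell (Ifngr2 and Ifnar1), against 34.2% of all genes tested called in that comparison. In Rosa26 cells 4 rose (Ifnar2, Socs1, Socs3 and Ptpn2) and 1 fell (Ifngr1), against 32.8% of all genes called. The value after Cop1 loss rests on 8 libraries and that in Rosa26 cells on 4. At equal size, 4 genes passed with sgRNA1 (Ifnar2, Socs1 and Socs3 higher, Ifnar1 lower, with 22.5% of all genes called) and 6 with sgRNA2 (Ifnar2, Jak2, Socs1, Socs3 and Ptpn2 higher, Ifngr2 lower, with 25.3% of all genes), and Jak1 passed with neither guide alone (adjusted p = 0.448 and 0.0795). The median log2 change of the 10 genes was 0.10 after Cop1 loss and -0.0043 in Rosa26 cells, beside -0.0058 and -0.0085 over all genes tested. The inhibitors stood far from the rest in size, Socs1 with a 5.60-fold rise after Cop1 loss and 5.88-fold in Rosa26 cells, and Socs3 with 2.42-fold and 2.82-fold. Ifnar2 followed with 1.68-fold and 1.54-fold. The remaining called changes were each under 1.5-fold.

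Cop1 loss moved the 10 genes less, and not all one way. Under IFNγ Socs3 and Jak2 were higher and Ifngr2 and Socs1 lower than in Rosa26 cells, 4 genes of 10 where 40.6% of all genes tested were called. Without Rosa26 IFNγ replicate 2 the count was 1. In vehicle Socs3 and Ptpn2 were higher and Ifngr1 and Ifngr2 lower, again 4 of 10, where 35.8% of all genes were called. These shares lie near the background. The median log2 change of the 10 genes was -0.031 under IFNγ and -0.077 in vehicle, beside -0.0045 and -0.0080 over all genes. With sgRNA1 alone against Rosa26, 3 genes passed under IFNγ (Socs3, Jak2 and Ifngr2, with 38.2% of all genes called) and 4 in vehicle (Socs3, Ptpn2, Ifngr2 and Ifnar2, with 33.4%). With sgRNA2 alone, 3 passed under IFNγ (Jak2, Ifngr2 and Socs1, with 32.9%) and 4 in vehicle (Socs3, Ptpn2, Ifngr1 and Ifngr2, with 29.2%). The guides share the Rosa26 libraries, so these are not separate tests of the control. In bulk libraries a smaller share of cells with a transcript and less transcript per cell cannot be told apart.

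Fewer of these calls held with the 2 libraries of each group summed, which takes the spread from the 2 guides and leaves fewer degrees of freedom. Then only Ifngr2 passed for Cop1 loss under IFNγ and in vehicle, and only Ifnar2, Socs1 and Socs3 passed for IFNγ in either background. The log2 changes with Cop1 loss stayed close in size, with 0.13 for Jak2 under IFNγ, 0.43 for Socs3 in vehicle and 0.22 for Ptpn2 in vehicle. The same setting ended the call of Cop1 itself, at -0.80 (adjusted p = 0.466) under IFNγ and -0.97 (adjusted p = 0.413) in vehicle. A list of 14 immediate early and stress genes summed to between 1208 and 1251 CPM in Cop1-guide libraries and between 1863 and 1879 CPM in Rosa26 libraries under IFNγ, and to between 1043 and 1096 CPM in all 6 vehicle libraries. Of its 13 tested genes, 1 was higher and 9 lower with Cop1 loss under IFNγ, where 40.6% of all genes tested were called. In vehicle 5 were higher and 4 lower, where 35.8% of all genes were called, so the similar sums there cover changes both ways. The part of this list in the differences of Socs1, Socs3, Jak2 and Ifngr2 under IFNγ was not tested.

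**Figure D1:**
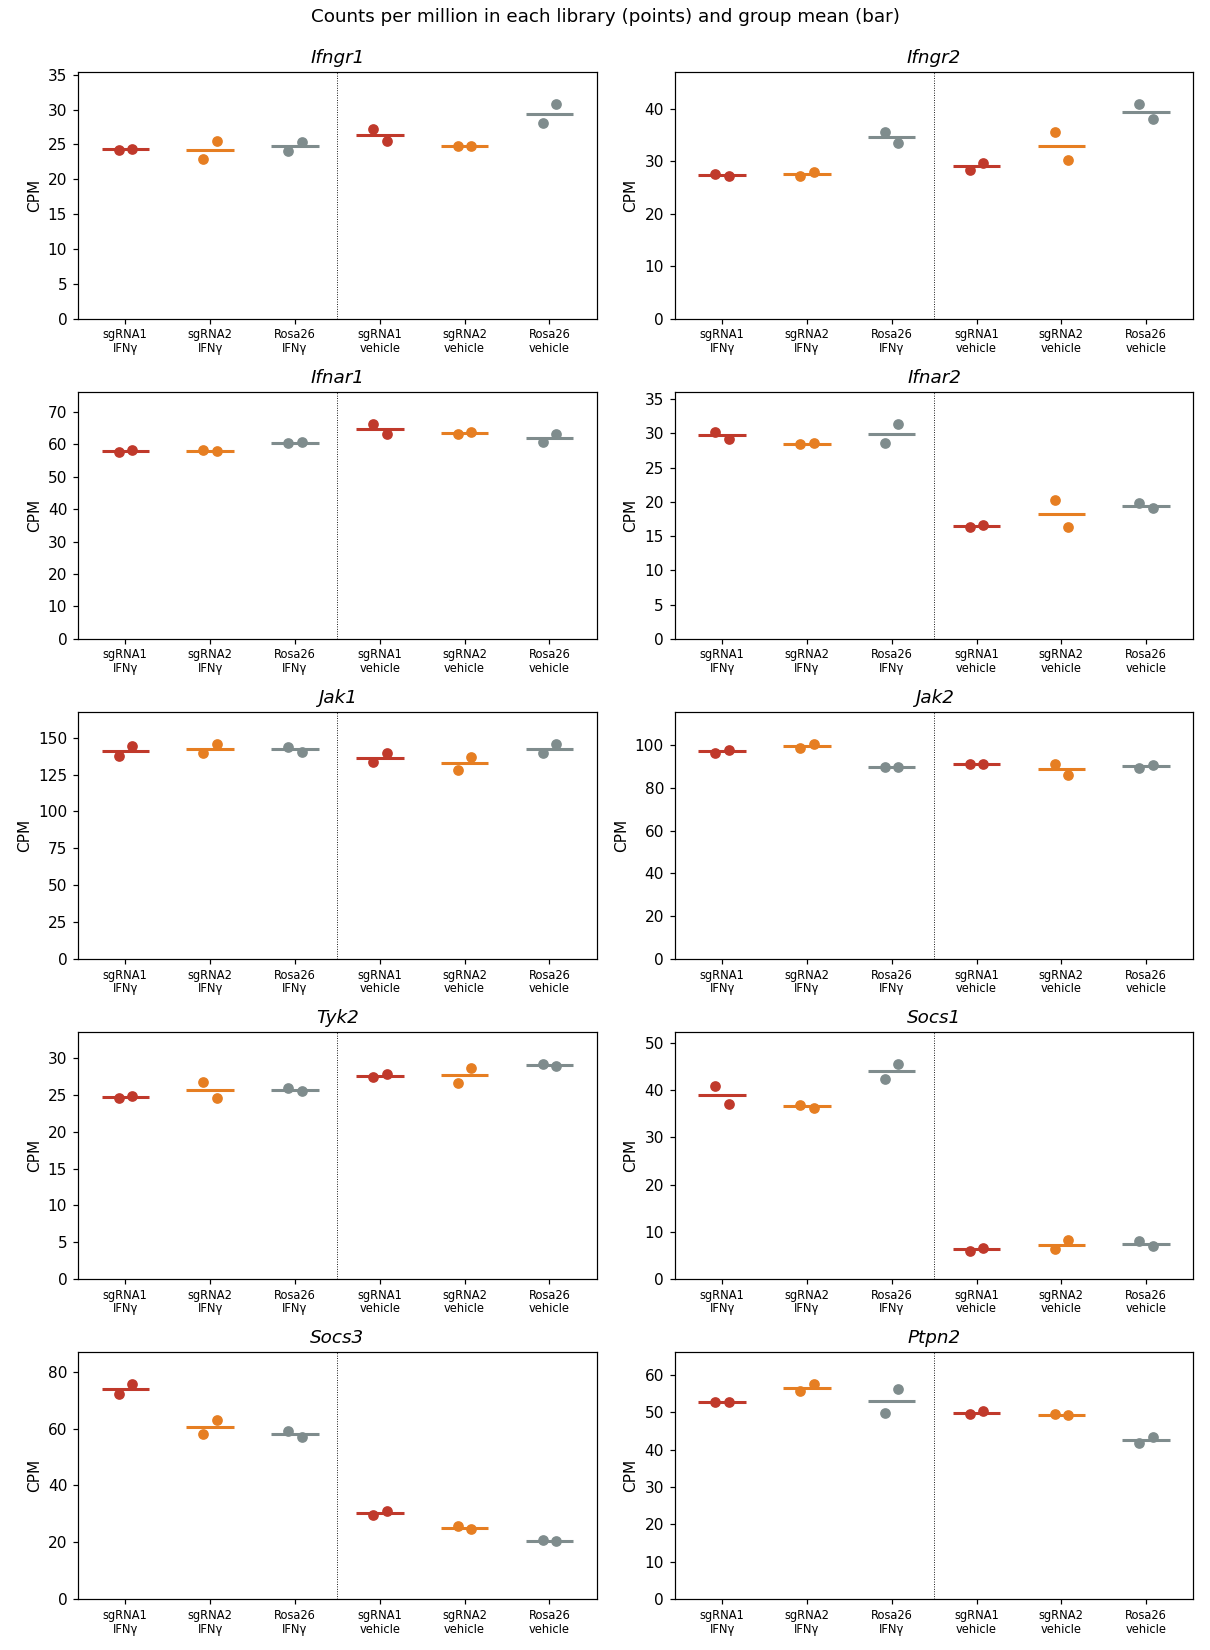
CPM of each gene in every library (points) with the group mean (bar), IFNγ groups left of the dotted line and vehicle groups right of it, each panel starting at 0. Socs1, Socs3 and Ifnar2 show 6 IFNγ libraries above all 6 vehicle libraries, while in the Jak2 panel only the 4 Cop1-guide libraries under IFNγ stand above the rest.

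**Figure D2:**
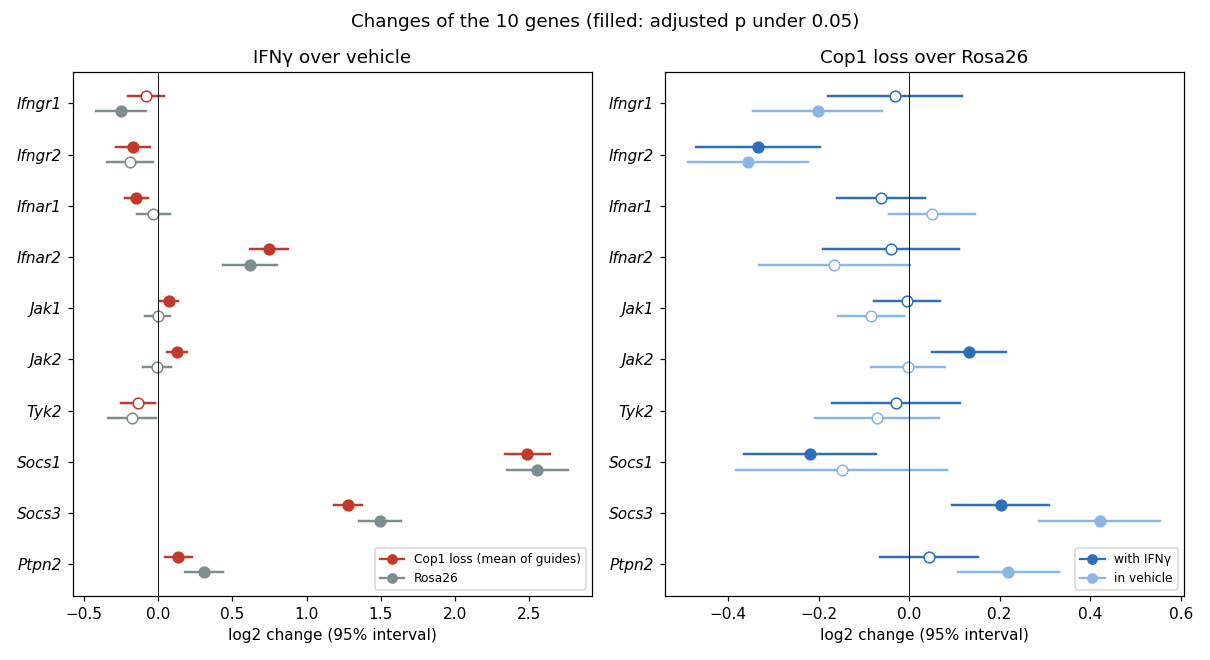
Log2 changes with 95% intervals for IFNγ over vehicle (left, after Cop1 loss and in Rosa26 cells) and for Cop1 loss over Rosa26 (right, with IFNγ and in vehicle), filled where the adjusted p was under 0.05. Socs1, Socs3 and Ifnar2 lie right of 0.5 in both backgrounds on the left, and Ifngr2 lies left of -0.2 in both treatments on the right.

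The 3 genes with the largest IFNγ responses also carry letters of interferon elements near their start. Promoter windows from 250 bases before to 50 bases after the RefSeq start (GRCm38.p6) were at hand for 9 of the 10 genes, and none was found for Ptpn2. Both strands were searched for TTCNNNGAA, the core of the GAS element, and for GAAANNGAAA, the core of the ISRE. Of 32851 RefSeq promoters searched, 8.3% held the first and 3.44% the second. The Socs1 window (chr16:10785487-10785786, minus strand) held 2 ISRE matches that overlap, GAAAGAGAAA at position -83 and GAAACCGAAA at position -77 from the start. The Socs3 window (chr11:117969317-117969616, minus strand) held 1 GAS match at -154, and its RefSeq start lies downstream of the 5′ end of the GENCODE gene. The Ifnar2 window (chr16:91372533-91372832, plus strand) held 1 GAS match at -214. Capitals mark these matches in the sequences, which run 5′ to 3′ on the strand of the gene.
Socs1: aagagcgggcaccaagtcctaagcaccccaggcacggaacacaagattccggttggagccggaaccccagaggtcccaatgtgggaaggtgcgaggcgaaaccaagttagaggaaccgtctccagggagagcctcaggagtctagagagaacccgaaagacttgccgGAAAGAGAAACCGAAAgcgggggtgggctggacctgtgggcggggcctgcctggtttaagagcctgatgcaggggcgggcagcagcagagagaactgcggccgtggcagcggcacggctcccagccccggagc
Socs3: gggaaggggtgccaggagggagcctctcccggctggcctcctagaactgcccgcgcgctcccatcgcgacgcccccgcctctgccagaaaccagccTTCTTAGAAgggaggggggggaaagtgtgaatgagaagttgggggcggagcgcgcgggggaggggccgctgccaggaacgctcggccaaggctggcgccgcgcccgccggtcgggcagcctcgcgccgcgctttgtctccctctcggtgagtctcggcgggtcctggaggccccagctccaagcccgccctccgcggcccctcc
Ifnar2: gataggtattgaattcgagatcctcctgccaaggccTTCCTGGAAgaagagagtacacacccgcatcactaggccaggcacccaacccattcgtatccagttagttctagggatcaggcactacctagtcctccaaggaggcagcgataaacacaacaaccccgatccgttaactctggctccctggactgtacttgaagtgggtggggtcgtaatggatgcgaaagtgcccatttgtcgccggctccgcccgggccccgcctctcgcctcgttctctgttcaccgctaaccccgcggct
A GAS match also stood at -5 in the window of Ifnar1, whose transcript did not rise, and no match stood in the windows of Ifngr1, Ifngr2, Jak1, Jak2 and Tyk2. These matches describe letters and are not shown to be bound sites.

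Levels were compared between genes per kilobase of exon, as group means with the SD of 2 libraries. The length is that of all merged exons of a gene, and the annotation used for counting is not known. Ranks between genes are therefore approximate beyond what the SD shows. Under IFNγ Socs3 had the highest mean of the 10 transcripts, with 25.6 ± 0.81 CPM per kb with sgRNA1, 20.9 ± 1.2 with sgRNA2 and 20.1 ± 0.57 in Rosa26 cells. Its lead was within the SD over Jak2 (19.8 ± 0.25 CPM per kb) and Jak1 (19.7 ± 0.60) with sgRNA2 and over Jak1 (19.7 ± 0.32) in Rosa26 cells. Socs1 had 13.4 ± 0.91 CPM per kb with sgRNA1, 12.6 ± 0.19 with sgRNA2 and 15.1 ± 0.73 in Rosa26 cells under IFNγ, above all 4 receptor chains in each population. Tyk2 was the lowest of the 10 under IFNγ, with 3.60 ± 0.032 CPM per kb with sgRNA1, 3.74 ± 0.22 with sgRNA2 and 3.75 ± 0.041 in Rosa26 cells. The ranking in vehicle was led by kinases. In Rosa26 vehicle cells Jak1 came first with 19.7 ± 0.59 CPM per kb, then Jak2 with 17.9 ± 0.16 and Ptpn2 with 13.6 ± 0.34 CPM per kb. Ifngr2 (10.5 ± 0.55), Ifnar1 (10.4 ± 0.29) and Ifngr1 (10.3 ± 0.68 CPM per kb) followed and did not differ beyond their SD. Socs3 had 7.12 ± 0.037, Ifnar2 5.84 ± 0.15, Tyk2 4.24 ± 0.023 and Socs1, the lowest, 2.57 ± 0.25 CPM per kb.

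**Figure D3:**
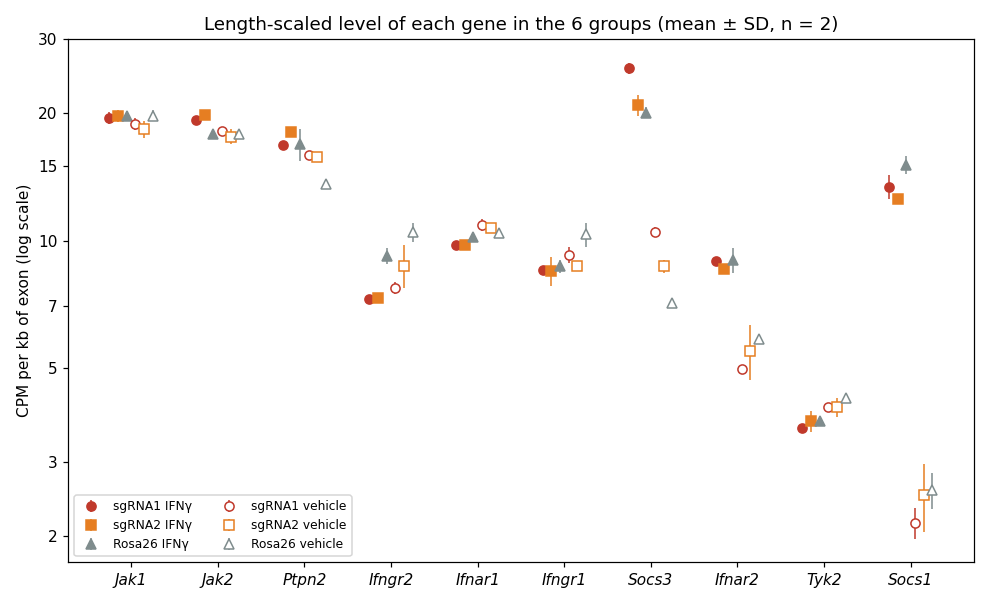
CPM per kb of exon on a log scale for the 10 genes, as group mean ± SD of 2 libraries, filled symbols for IFNγ and open symbols for vehicle. Socs1 stands above the receptor chains with IFNγ and lowest of all in vehicle, and each kinase has nearly the same height in all 6 groups.

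Ifngr2 was lower with Cop1 loss in both treatments. The gene (chr16:91547072-91565623 on GRCm38, plus strand, 7 exons) encodes the signalling chain of the IFNγ receptor. With IFNγ it had 27.5 and 27.2 CPM with sgRNA1, 27.2 and 27.99 CPM with sgRNA2 and 35.7 and 33.6 CPM in Rosa26 cells. The vehicle libraries had 28.4 and 29.7 CPM with sgRNA1, 35.6 and 30.1 CPM with sgRNA2 and 40.9 and 38.0 CPM in Rosa26 cells. In both treatments the 4 Cop1-guide libraries lay below both Rosa26 libraries, and sgRNA2 vehicle replicate 1 came closest to them. The log2 change with Cop1 loss was -0.33 ± 0.068 (adjusted p = 0.000102) under IFNγ and -0.36 ± 0.066 (adjusted p = 2.82e-05) in vehicle, and each guide alone passed in both treatments. It passed in all 22 alternative settings of each comparison, with log2 changes from -0.38 to -0.29 and from -0.44 to -0.27. For sgRNA2 alone in vehicle the log2 change was -0.27 ± 0.077, and the call was lost when Rosa26 vehicle replicate 1 (adjusted p = 0.111) or sgRNA2 vehicle replicate 2 (adjusted p = 0.252) was left out, within 0.00108 to 0.252 over its alternatives. Between sgRNA2 and sgRNA1 it was not called, with log2 changes of 0.012 ± 0.082 (adjusted p = 0.959) under IFNγ and 0.18 ± 0.078 (adjusted p = 0.214) in vehicle. The 95% intervals were -0.15 to 0.18 and 0.018 to 0.33, and the unadjusted p in vehicle was 0.0302.

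IFNγ itself lowered Ifngr2 after Cop1 loss, by a log2 change of -0.17 ± 0.057 (adjusted p = 0.0188), and the value in Rosa26 cells was -0.19 ± 0.076 (adjusted p = 0.0513), just short of the threshold. The call after Cop1 loss ended with DESeq2 (adjusted p = 0.0593), with sgRNA1 alone (adjusted p = 0.504), and without sgRNA1 vehicle replicate 2 (adjusted p = 0.0609), sgRNA2 vehicle replicate 1 (adjusted p = 0.191) or sgRNA2 IFNγ replicate 1 (adjusted p = 0.0666), over a range of 0.00242 to 0.504. In Rosa26 cells the change passed with a replicate block (adjusted p = 0.0485), with only the groups compared (0.0489), with scaling to library totals (0.0344) and without sgRNA2 vehicle replicate 1 (0.0389) or 2 (0.0384), over a range of 0.0344 to 0.362. The difference between both responses was 0.022 ± 0.095 (adjusted p = 0.939), with a 95% interval of -0.17 to 0.21.

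Ifngr1 stood highest in Rosa26 vehicle cells and was nearly level in the other groups. It encodes the ligand-binding chain of the IFNγ receptor (chr10:19591949-19610229, plus strand, 7 exons). Under IFNγ the libraries had 24.2 and 24.3 CPM with sgRNA1, 22.8 and 25.5 CPM with sgRNA2 and 24.1 and 25.4 CPM in Rosa26 cells. In vehicle they had 27.1 and 25.6 CPM with sgRNA1, 24.8 and 24.7 CPM with sgRNA2 and 28.1 and 30.8 CPM in Rosa26 cells. Both Rosa26 vehicle libraries thus lay above the other 10 libraries. The log2 change with Cop1 loss was -0.032 ± 0.073 (adjusted p = 0.771) under IFNγ and -0.20 ± 0.071 (adjusted p = 0.0223) in vehicle, and with IFNγ it was -0.080 ± 0.060 (adjusted p = 0.326) after Cop1 loss and -0.25 ± 0.083 (adjusted p = 0.0168) in Rosa26 cells. Both calls share the Rosa26 vehicle libraries. Without Rosa26 vehicle replicate 2 neither passed, with an adjusted p of 0.31 for Cop1 loss in vehicle (log2 change -0.13) and 0.195 for IFNγ in Rosa26 cells. The first call also ended without sgRNA1 vehicle replicate 2 (adjusted p = 0.0623), with sgRNA1 alone (0.143) and with DESeq2 (0.0802), over a range of 0.00976 to 0.31. The second ended without Rosa26 IFNγ replicate 1 (adjusted p = 0.133) and with DESeq2 (0.0599), over a range of 0.0113 to 0.214.

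Ifnar2 was the receptor chain that rose with IFNγ. It encodes the high-affinity chain of the type I interferon receptor (chr16:91372783-91405589, plus strand, 9 exons). Under IFNγ it had 30.3 and 29.2 CPM with sgRNA1, 28.5 and 28.5 CPM with sgRNA2 and 28.5 and 31.3 CPM in Rosa26 cells. In vehicle it had 16.4 and 16.6 CPM with sgRNA1, 20.2 and 16.4 CPM with sgRNA2 and 19.8 and 19.1 CPM in Rosa26 cells. All 6 IFNγ libraries lay above all 6 vehicle libraries. The log2 change with IFNγ was 0.75 ± 0.065 (adjusted p = 5.85e-13) after Cop1 loss and 0.62 ± 0.090 (adjusted p = 3.47e-07) in Rosa26 cells, and it passed in every alternative. The difference between these responses was 0.13 ± 0.11 (adjusted p = 0.618). With Cop1 loss Ifnar2 changed by -0.040 ± 0.075 (adjusted p = 0.71) under IFNγ and -0.17 ± 0.083 (adjusted p = 0.118) in vehicle, neither of them called. The vehicle value passed without sgRNA2 vehicle replicate 1 (adjusted p = 0.0226) and with sgRNA1 alone (adjusted p = 0.0498), over a range of 0.0226 to 0.517. Ifnar2 shares 315 exon bases, 9.46% of its exon length, with Gm21970 on the same strand, a gene not listed in the table. The annotation used for counting is not known, so whether this overlap affected the Ifnar2 counts cannot be told.

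Ifnar1, the other chain of the type I receptor (chr16:91485238-91507441, plus strand, 12 exons), did not rise with its partner. Its IFNγ libraries had 57.6 and 58.2 CPM with sgRNA1, 58.4 and 57.8 CPM with sgRNA2 and 60.5 and 60.7 CPM in Rosa26 cells. Without IFNγ it had 66.3 and 63.3 CPM with sgRNA1, 63.1 and 63.9 CPM with sgRNA2 and 60.8 and 63.2 CPM in Rosa26 cells. The 4 Cop1-guide libraries under IFNγ were the lowest of the 12. Its IFNγ response on the log2 scale was -0.15 ± 0.039 (adjusted p = 0.00257) after Cop1 loss and -0.033 ± 0.055 (adjusted p = 0.687) in Rosa26 cells, and the call ended with sgRNA2 alone (adjusted p = 0.0931, range 0.000313 to 0.157). The difference between the responses was -0.11 ± 0.067 (adjusted p = 0.395), with a 95% interval of -0.25 to 0.023. Cop1 loss gave -0.062 ± 0.048 under IFNγ and 0.051 ± 0.047 in vehicle, neither of them called. Ifnar2, Ifnar1 and Ifngr2 lie close together on the plus strand of chromosome 16, yet with IFNγ only Ifnar2 rose, in both backgrounds. Ifnar1 and Ifngr2 were called lower after Cop1 loss. The value of Ifngr2 in Rosa26 cells was of like size and just short of the threshold (-0.19 ± 0.076, adjusted p = 0.0513).

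Jak2, the kinase that Ifngr2 brings to the IFNγ receptor (chr19:29251828-29313080, plus strand, 25 exons), was higher in Cop1-guide cells under IFNγ. There it had 96.5 and 97.8 CPM with sgRNA1 and 98.6 and 100.4 CPM with sgRNA2, against 89.5 and 89.9 CPM in Rosa26 cells. In vehicle it had 91.2 and 91.3 CPM with sgRNA1, 91.2 and 86.2 CPM with sgRNA2 and 89.5 and 90.7 CPM in Rosa26 cells. The 4 Cop1-guide libraries under IFNγ lay above the other 8, which spanned 86.19 to 91.30 CPM. The difference was small, 1.096-fold. The log2 change with Cop1 loss was 0.13 ± 0.040 (adjusted p = 0.00802) under IFNγ and -0.0021 ± 0.040 (adjusted p = 0.977) in vehicle, and that with IFNγ was 0.13 ± 0.033 (adjusted p = 0.00175) after Cop1 loss and -0.0054 ± 0.047 (adjusted p = 0.949) in Rosa26 cells. The difference between the IFNγ responses was 0.13 ± 0.057 (adjusted p = 0.18), with a 95% interval of 0.018 to 0.25 and an unadjusted p of 0.0242, so it did not pass over all genes. The call under IFNγ ended without Rosa26 IFNγ replicate 1 (adjusted p = 0.0638) or replicate 2 (adjusted p = 0.0512) and with scaling to library totals (adjusted p = 0.0737), over a range of 0.00636 to 0.23. The rise with IFNγ after Cop1 loss ended with sgRNA1 alone (adjusted p = 0.166, range 0.000987 to 0.173).

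Jak1, the kinase shared by both receptors (chr4:101152367-101265282, minus strand, 25 exons), lay between 128 and 146 CPM in all 12 libraries. Under IFNγ it had 138 and 144 CPM with sgRNA1, 139.5 and 146 CPM with sgRNA2 and 144 and 141 CPM in Rosa26 cells. The vehicle values were 133 and 139.6 CPM with sgRNA1, 128 and 137 CPM with sgRNA2 and 139.6 and 146 CPM in Rosa26 cells. The sgRNA2 libraries with IFNγ lay above those in vehicle, while sgRNA1 and Rosa26 libraries overlapped between treatments. IFNγ over vehicle gave a log2 change of 0.075 ± 0.030 (adjusted p = 0.0459) after Cop1 loss and -0.0032 ± 0.042 (adjusted p = 0.965) in Rosa26 cells. The call after Cop1 loss held in only 10 of 22 alternatives, with adjusted p from 0.0139 to 0.448. It ended without sgRNA1 vehicle replicate 1 (adjusted p = 0.201), sgRNA2 vehicle replicate 1 (0.224), sgRNA1 IFNγ replicate 2 (0.197) or sgRNA2 IFNγ replicate 2 (0.234). Cop1 loss gave -0.0049 ± 0.036 (adjusted p = 0.934) under IFNγ and -0.083 ± 0.036 (adjusted p = 0.0685) in vehicle. The vehicle value passed without sgRNA1 vehicle replicate 2 (adjusted p = 0.0458) or sgRNA2 vehicle replicate 2 (adjusted p = 0.0248), within 0.0164 to 0.458.

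Tyk2, the kinase docked by Ifnar1 (chr9:21104068-21131243, minus strand, 25 exons), passed in none of the comparisons. It had 24.6 and 24.9 CPM with sgRNA1, 26.7 and 24.6 CPM with sgRNA2 and 25.9 and 25.5 CPM in Rosa26 cells under IFNγ. In vehicle it had 27.5 and 27.9 CPM with sgRNA1, 26.7 and 28.7 CPM with sgRNA2 and 29.2 and 29.0 CPM in Rosa26 cells. The IFNγ libraries were the lower ones, with an overlap between sgRNA2 libraries alone. The log2 change with IFNγ was -0.13 ± 0.057 (adjusted p = 0.0619) after Cop1 loss and -0.18 ± 0.079 (adjusted p = 0.086) in Rosa26 cells, with 95% intervals of -0.25 to -0.020 and -0.34 to -0.016. After Cop1 loss it passed without sgRNA2 vehicle replicate 1 (adjusted p = 0.0467) and with scaling to library totals (adjusted p = 0.0198), over a range of 0.0198 to 0.374. Cop1 loss gave -0.030 ± 0.070 under IFNγ and -0.071 ± 0.068 in vehicle. An antisense gene that is not listed in the table, 1700084C06Rik, covers 554 of its exon bases (8.07%), and the strand setting of the counting is not given in the sources used here.

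Socs1, the inhibitor that binds and blocks JAK kinases (chr16:10782240-10785536, minus strand, 2 exons), had the largest IFNγ response of the 10 genes. With IFNγ there were 40.9 and 37.1 CPM with sgRNA1, 37.0 and 36.2 CPM with sgRNA2 and 42.5 and 45.5 CPM in Rosa26 cells. Vehicle libraries had 5.89 and 6.62 CPM with sgRNA1, 6.34 and 8.24 CPM with sgRNA2 and 7.98 and 6.94 CPM in Rosa26 cells. No IFNγ library came near a vehicle library. Its IFNγ response on the log2 scale was 2.49 ± 0.075 (adjusted p = 6.2e-29) after Cop1 loss and 2.56 ± 0.10 (adjusted p = 4.98e-24) in Rosa26 cells. Under IFNγ the 4 Cop1-guide libraries lay below both Rosa26 libraries, and Socs1 changed by a log2 change of -0.22 ± 0.072 (adjusted p = 0.0127) with Cop1 loss, 0.859 times the Rosa26 level. sgRNA2 passed alone, with -0.27 ± 0.084 (adjusted p = 0.0126), and sgRNA1 had -0.17 ± 0.083 (adjusted p = 0.0986). The guides differed from each other by -0.094 ± 0.085, with a 95% interval of -0.27 to 0.077, so a difference between them was not detected. In vehicle, at a lower count, Cop1 loss gave -0.15 ± 0.12 (adjusted p = 0.333). The call under IFNγ ended without Rosa26 IFNγ replicate 2 (adjusted p = 0.189) or sgRNA1 IFNγ replicate 2 (adjusted p = 0.0573) and with DESeq2 (adjusted p = 0.0633), over a range of 0.00265 to 0.218. The difference between the IFNγ responses was -0.070 ± 0.14 (adjusted p = 0.854), with a 95% interval of -0.34 to 0.20.

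Socs3, best known as the inhibitor of gp130 receptors such as that of interleukin 6 (chr11:117966079-117970047, minus strand, 2 exons), differed between all 3 populations in vehicle. Under IFNγ it had 72.2 and 75.5 CPM with sgRNA1, 58.0 and 63.0 CPM with sgRNA2 and 59.2 and 56.9 CPM in Rosa26 cells. In vehicle it had 29.7 and 30.9 CPM with sgRNA1, 25.8 and 24.5 CPM with sgRNA2 and 20.7 and 20.5 CPM in Rosa26 cells. Under IFNγ sgRNA1 stood alone while sgRNA2 and Rosa26 libraries overlapped, and in vehicle the order was sgRNA1, sgRNA2 and Rosa26 with no overlap. With Cop1 loss the log2 change was 0.20 ± 0.053 (adjusted p = 0.00193) under IFNγ and 0.42 ± 0.066 (adjusted p = 1.93e-06) in vehicle. Under IFNγ sgRNA1 passed alone, with 0.35 ± 0.060 (adjusted p = 8.32e-06), and sgRNA2 had 0.058 ± 0.062 (adjusted p = 0.516). In vehicle both guides passed, with 0.56 ± 0.074 (adjusted p = 7.38e-08) for sgRNA1 and 0.29 ± 0.078 (adjusted p = 0.00411) for sgRNA2. The call of the guides' mean under IFNγ ended without Rosa26 IFNγ replicate 2 (adjusted p = 0.053) and with sgRNA2 alone, over a range of 8.32e-06 to 0.516.

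Socs3 was also the only one of the 10 genes called between the guides. sgRNA2 was below sgRNA1 by -0.29 ± 0.060 (adjusted p = 0.000985) under IFNγ, where 9.41% of all genes were called between the guides, and by -0.27 ± 0.072 (adjusted p = 0.0169) in vehicle, where 5.99% were called. So 1 of 10 genes passed in each comparison of the guides. sgRNA2 cells, with less Cop1 transcript than sgRNA1 cells, had less Socs3 than sgRNA1 cells in both treatments and more than Rosa26 cells in vehicle. The call under IFNγ ended without sgRNA2 IFNγ replicate 1 (adjusted p = 0.081, range 0.000218 to 0.081). That in vehicle ended with only the groups compared in the fit (adjusted p = 0.0623) and without sgRNA1 vehicle replicate 1 (0.0611), sgRNA1 vehicle replicate 2 (0.122) or sgRNA2 vehicle replicate 2 (0.142), over a range of 0.0127 to 0.142. IFNγ raised Socs3 by 1.28 ± 0.047 (adjusted p = 8.46e-26) after Cop1 loss and 1.495 ± 0.070 (adjusted p = 7.86e-22) in Rosa26 cells, and by 1.29 with sgRNA1 and 1.27 with sgRNA2. The difference between the responses was -0.22 ± 0.085 (adjusted p = 0.134), with an unadjusted p of 0.0139 and a 95% interval of -0.39 to -0.047.

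Ptpn2, a phosphatase that dephosphorylates JAK1 and JAK3 (chr18:67665511-67724595, minus strand, 10 exons), was higher with Cop1 loss in vehicle. Under IFNγ it had 52.8 and 52.6 CPM with sgRNA1, 55.5 and 57.4 CPM with sgRNA2 and 49.7 and 56.1 CPM in Rosa26 cells. The vehicle libraries had 49.6 and 50.2 CPM with sgRNA1 and 49.5 and 49.1 CPM with sgRNA2, against 41.9 and 43.4 CPM in Rosa26 cells. Under IFNγ the groups overlapped, and in vehicle all 4 Cop1-guide libraries lay above both Rosa26 libraries. With Cop1 loss the log2 change was 0.045 ± 0.053 (adjusted p = 0.539) under IFNγ and 0.22 ± 0.055 (adjusted p = 0.0016) in vehicle, and both guides passed in vehicle, with 0.23 ± 0.063 (adjusted p = 0.0042) for sgRNA1 and 0.21 ± 0.064 (adjusted p = 0.0102) for sgRNA2. Without Rosa26 vehicle replicate 1 neither guide passed alone, with an adjusted p of 0.054 for sgRNA1 and 0.0895 for sgRNA2 (ranges 0.00262 to 0.054 and 0.00728 to 0.0895). IFNγ raised it by 0.14 ± 0.044 (adjusted p = 0.0122) after Cop1 loss and by 0.31 ± 0.063 (adjusted p = 0.000117) in Rosa26 cells. The call after Cop1 loss ended without sgRNA2 IFNγ replicate 2 (adjusted p = 0.0617), with sgRNA1 alone (0.393) and with scaling to library totals (0.0532), over a range of 0.00901 to 0.393. The difference between the responses was -0.17 ± 0.077 (adjusted p = 0.2), with an unadjusted p of 0.029 and a 95% interval of -0.33 to -0.019.

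Whether Cop1 loss altered the IFNγ response itself was asked by the difference between the responses. By edgeR 0 of the 10 genes were called, against 5.74% of all genes tested, and DESeq2 also called 0. At an unadjusted p under 0.05, 3 of the 10 passed, Socs3, Jak2 and Ptpn2. By p they ranked 1240, 1596 and 1724 among 11904 genes tested, so many other genes passed that threshold too. The share of all genes passing it was not counted. The median difference was 0.032 over the 10 genes and 0.0099 over all genes tested.

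Most of the transcription factors below the kinases rose with IFNγ. Of 10 tested STAT and IRF factors, 8 rose and 1 fell with IFNγ after Cop1 loss, and 7 rose and 0 fell in Rosa26 cells by edgeR, where 34.2% and 32.8% of all genes were called. Irf1, an early interferon-induced factor, rose by 3.60 ± 0.028 after Cop1 loss and 3.54 ± 0.040 in Rosa26 cells, and Stat2, a partner in the ISRE-binding complex, by 2.81 ± 0.042 and 2.89 ± 0.058. The median log2 change of the list was 1.82 after Cop1 loss and 1.74 in Rosa26 cells, without the genes of the list that are not reported here. Stat6 in Rosa26 cells (-0.037 ± 0.037) and Stat5a after Cop1 loss (-0.054 ± 0.094) were not called. With Cop1 loss 1 was higher and 4 lower under IFNγ, and 1 was higher and 3 lower in vehicle, with medians of -0.074 and -0.15 and 40.6% and 35.8% of all genes called. Without Rosa26 IFNγ replicate 1 the 5 calls under IFNγ numbered 3. Without Rosa26 vehicle replicate 1 the 4 calls in vehicle numbered 7. Irf8 was higher (1.04 ± 0.057 in vehicle) and Irf7 lower (-0.91 ± 0.072 under IFNγ and -0.70 ± 0.15 in vehicle), both interferon-induced factors. Stat3, the STAT that gp130 receptors activate, was lower in vehicle (-0.18 ± 0.042 (adjusted p = 0.000627)) and Stat2 was lower under IFNγ (-0.24 ± 0.040 (adjusted p = 5.66e-06)). The responses themselves differed for Irf8, by -0.94 ± 0.067 (adjusted p = 8.61e-14). So 0 were higher and 1 lower of 10, where 5.74% of all genes were called, and 2 were called without sgRNA1 vehicle replicate 1 or without sgRNA2 vehicle replicate 2. With the libraries summed, the calls of Irf7 (adjusted p = 0.218 under IFNγ and 0.496 in vehicle), Stat3 (0.134), Stat2 under IFNγ (0.122) and Irf8 for the difference between responses (0.0775) ended, and that of Irf8 in vehicle held (0.000546).

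Other inhibitors of the pathway split in direction with Cop1 loss. Of 15 tested, 5 were higher and 4 lower under IFNγ and 4 higher and 3 lower in vehicle, with medians of -0.013 and -0.0073 and 40.6% and 35.8% of all genes called. Without Rosa26 vehicle replicate 1 the 7 calls in vehicle numbered 4. Ptpn1, a phosphatase of JAK2 and TYK2, was higher under IFNγ (0.34 ± 0.044 (adjusted p = 3.8e-08)) and in vehicle (0.30 ± 0.043 (adjusted p = 3.36e-07)). Sh2b3, an adaptor that restrains JAK2, was higher in vehicle (0.29 ± 0.047 (adjusted p = 2.07e-06)). Usp18, which blocks the type I receptor at Ifnar2, was lower under IFNγ by -1.10 ± 0.11 (adjusted p = 1.17e-10), with 7.505 and 8.40 CPM with sgRNA1 and 11.7 and 14.6 CPM with sgRNA2 against 22.1 and 21.6 CPM in Rosa26 cells. Socs4 was lower as well (-0.34 ± 0.057 (adjusted p = 4.55e-06)). Pias2 had 0.092 under IFNγ and Socs6 -0.0073 in vehicle, neither of them called. With IFNγ 2 rose and 3 fell after Cop1 loss, and 3 rose and 3 fell in Rosa26 cells. These stand beside 34.2% and 32.8% of all genes called, and so lie near the background. Usp18 rose by 2.10 ± 0.13 and 2.53 ± 0.16. Without Rosa26 vehicle replicate 2 the 6 calls in Rosa26 cells numbered 1. Of the 4 subunits of the ligase that SOCS proteins recruit, Elob was higher with Cop1 loss under IFNγ (0.14 ± 0.031 (adjusted p = 0.000176)) and Elob and Eloc in vehicle (0.12 ± 0.030 (adjusted p = 0.002) and 0.10 ± 0.040 (adjusted p = 0.046)), while Cul5 had 0.0060 in vehicle and was not called. The call for Eloc ended when Rosa26 vehicle replicate 1 (adjusted p = 0.315) or 2 (0.072), sgRNA1 vehicle replicate 1 (0.149) or sgRNA2 vehicle replicate 1 (0.129) was left out, and in other settings, over a range of 0.0236 to 0.395. With IFNγ edgeR called 0 of the 4 in either background, where 34.2% (Cop1 loss) and 32.8% (Rosa26) of all genes were called. At an unadjusted p under 0.05 the counts were 2 after Cop1 loss and 1 in Rosa26 cells, and DESeq2 called 0 in both. The share of all genes passing that unadjusted threshold was not counted, so these counts have no background to stand beside. With the libraries summed, the calls with Cop1 loss ended for Ptpn1 (adjusted p = 0.0727 under IFNγ and 0.125 in vehicle), Sh2b3 (0.0501), Socs4 (0.099) and Elob (0.147 and 0.251), and that of Usp18 under IFNγ held (0.0375).

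Among 17 tested receptors that also use JAK kinases, with Jak3, Cop1 loss was accompanied by lower Il6st and Osmr. Under IFNγ 2 were higher and 5 lower, and in vehicle 0 were higher and 7 lower by edgeR, with medians of -0.16 and -0.21. These 7 of 17 in each treatment stand beside 40.6% and 35.8% of all genes called. In vehicle 4 were called without Rosa26 vehicle replicate 2, and sgRNA1 alone gave 2 higher and 4 lower. Il6st, which encodes gp130, had 122 and 119 CPM with sgRNA1, 132 and 128 CPM with sgRNA2 and 169 and 168 CPM in Rosa26 cells under IFNγ. The log2 change of Il6st was -0.43 ± 0.034 (adjusted p = 5.1e-14) under IFNγ and -0.51 ± 0.033 (adjusted p = 3.33e-16) in vehicle, with all 4 Cop1-guide libraries below both Rosa26 libraries in each treatment. Osmr, a receptor chain for oncostatin M, changed by -0.49 ± 0.080 (adjusted p = 2.86e-06) under IFNγ and -0.81 ± 0.10 (adjusted p = 2.23e-08) in vehicle. With the libraries summed the calls of Il6st (adjusted p = 0.00414 and 0.00286) and Osmr (0.0171 and 0.00489) held. Il12rb1 was higher under IFNγ (1.27 ± 0.12 (adjusted p = 3.84e-12)). DESeq2 called 0 of the 17 for a difference between the IFNγ responses. By edgeR Il12rb1 was the only one called (0.88 ± 0.22 (adjusted p = 0.0115)), where 5.74% of all genes were called. Leaving out Rosa26 vehicle replicate 1 ended that call (adjusted p = 0.0728), as did leaving out replicate 2 (0.0914) or Rosa26 IFNγ replicate 1 (0.051) and using sgRNA1 alone (0.0514), over a range of 0.002 to 0.618. Jak3, a kinase that Ptpn2 also acts on, had 0.15 under IFNγ and 0.14 in vehicle and was not called in either. With IFNγ 5 of the 17 rose and 0 fell after Cop1 loss, and 4 rose and 0 fell in Rosa26 cells. There 34.2% and 32.8% of all genes were called, so the share called among these receptors was not above that of all genes. Il15ra led with 2.82 ± 0.075 and 2.49 ± 0.11.

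The 5 interferon genes on the list of ligands had almost no counts, and other interferon genes were not examined. Ifng, Ifna4, Ifnl2 and Ifnl3 had no count in any library, which allows up to 3 counts per library, and Ifnb1 had 1 count in the 12 libraries. Of 14 listed ligands of JAK-coupled receptors 6 were tested. With IFNγ 4 rose and 0 fell after Cop1 loss, and 5 rose and 0 fell in Rosa26 cells. Of all genes tested, 34.2% and 32.8% were called there. Under IFNγ 0 were higher and 4 lower with Cop1 loss, and in vehicle 2 were higher and 1 lower. Those counts stand beside 40.6% and 35.8% of all genes called. In vehicle the 3 calls numbered 1 without Rosa26 vehicle replicate 1 and 0 without replicate 2, and 2 of the 4 under IFNγ held with the libraries summed. Lif, a ligand of gp130 receptors and thus an inducer of Socs3, had 330.5 and 321 CPM with sgRNA1, 309 and 324 CPM with sgRNA2 and 352 and 358 CPM in Rosa26 cells under IFNγ. Its change with Cop1 loss was -0.14 ± 0.028 (adjusted p = 3.97e-05) under IFNγ and 0.086 ± 0.030 (adjusted p = 0.0212) in vehicle. The vehicle call for Lif ended when Rosa26 vehicle replicate 1 (adjusted p = 0.0788) or 2 (0.141) or sgRNA1 vehicle replicate 2 (0.0577) was left out, with sgRNA2 alone (0.321) and with scaling to library totals (0.114), over a range of 0.004 to 0.449. Il15, the lower one in vehicle, had -0.40 ± 0.16 (adjusted p = 0.0498) and lost the call in most alternatives (range 0.0114 to 0.342). Csf3 changed by -0.21 ± 0.023 (adjusted p = 1.55e-09) under IFNγ and 0.10 ± 0.025 (adjusted p = 0.00116) in vehicle, but its direction differed by guide, with 0.056 for sgRNA1 under IFNγ and -0.091 for sgRNA2 in vehicle. Its vehicle call also ended without Rosa26 vehicle replicate 2 (adjusted p = 0.0981, range 3.1e-11 to 0.859). The IFNγ responses of Lif (-0.23 ± 0.041) and Csf3 (-0.30 ± 0.034) were smaller after Cop1 loss. That of Il11 differed by -1.32 ± 0.28, and after Cop1 loss its response was -0.24 ± 0.17 and not called (adjusted p = 0.308). These 3 of the 6 were called by edgeR, where 5.74% of all genes were called, and DESeq2 called 2, Lif and Csf3. But with the libraries summed, 0 genes of all those tested were called for that difference.

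**Figure D4:**
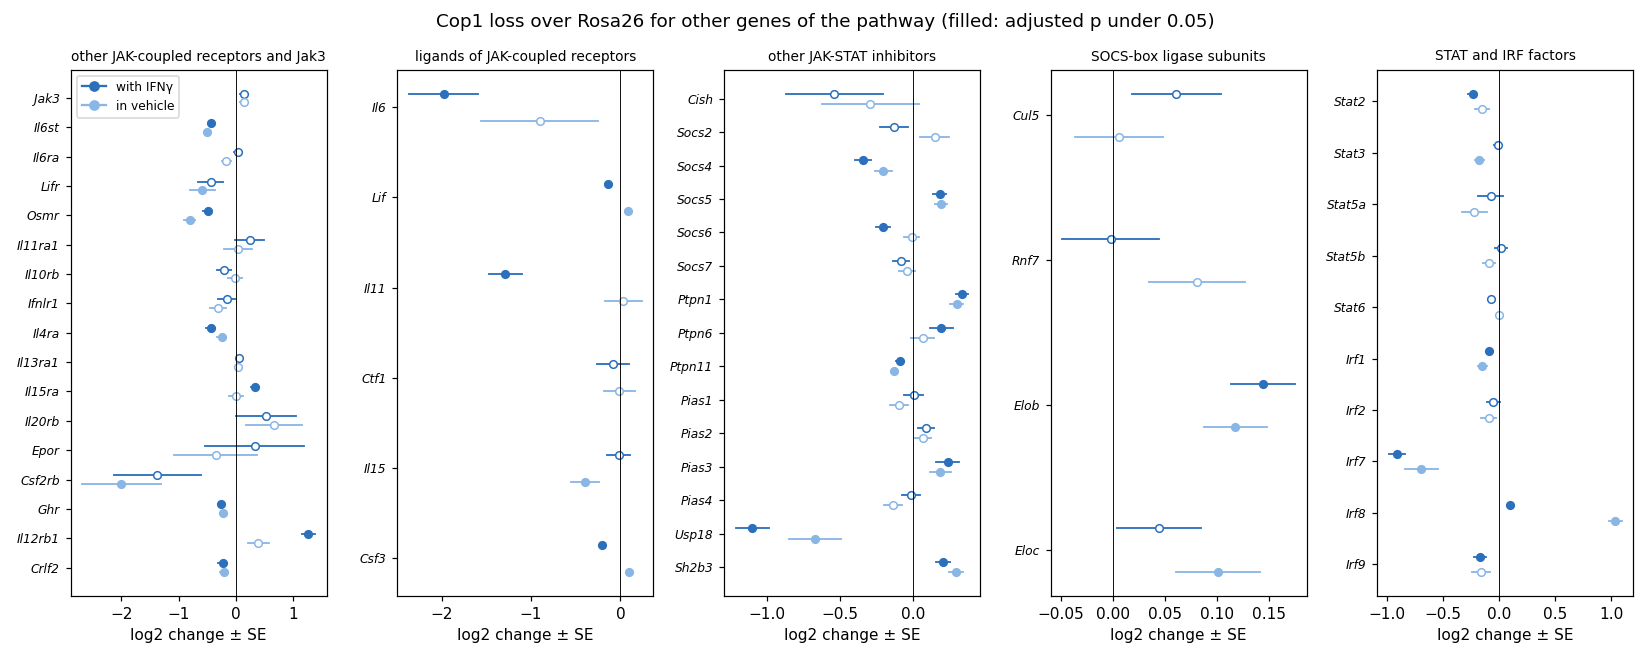
Log2 change ± SE of Cop1 loss over Rosa26 for the other genes of the pathway, in 5 panels by role, with IFNγ (dark) above vehicle (light) in each row and filled points where the adjusted p was under 0.05. Il6st and Osmr lie left of 0 in both treatments, Ptpn1 and Sh2b3 right of 0 in both, and Il12rb1 far right with IFNγ.

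The genes whose log2 CPM followed Socs1 most closely over the 12 libraries, among 9074 genes whose log2 CPM averaged at least 3, were Irf1 (Pearson r = 0.995), Gbp7 (0.995), Tap1 (0.994), Zbp1 (0.994) and Ifi202b (0.994). Those nearest to Socs3 were H2-Q7 (0.994), Upp1 (0.992), Ppa1 (0.992), Lap3 (0.991) and Lipg (0.989). Those nearest to Jak2 were Lrp8 (0.915), Med14 (0.909), Ppme1 (0.903), Pphln1 (0.893) and Epha1 (0.89). For Socs1 and Socs3 these values mostly reflect the split between IFNγ and vehicle libraries, which fall into separate clusters, and all points share the library scaling. They are descriptions of 12 libraries.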

How the data were processed

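The authors deposited 1 table of raw gene counts in whole numbers for 12 RNA sequencing libraries. Libraries were made with an Illumina TruSeq kit from total RNA, per the labels' protocols. STAR 2.4.0, HTSeq and DESeq2 1.10 with build mm10 are named in the submitters' processing notes, without their roles. Annotation, strand setting and handling of multiply aligned reads were not given in the sources used here. A row of totals was left out.

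From the counts, edgeR 4.0.16 (R 4.3.3) fitted the means of all 6 groups together, after TMM normalization and filterByExpr (minimum count 10, minimum total 15), with 6 residual and a median of 34.5 prior degrees of freedom, and robust empirical Bayes. Calls used an adjusted p under 0.05 over 11904 genes. Standard errors are the log2 change divided by the square root of the F statistic. CPM per kb divides by the merged exon length of GENCODE vM21 (GRCm38), the source of gene coordinates. Promoters are RefSeq's. Replicates of a group differed beyond sampling noise (chi-square per degree of freedom 2.33 to 4.21), so each was used. The code was tested on simulated counts. Alternatives were other scalings, no filter, non-robust fits, DESeq2 1.42.0, only the groups compared, a replicate block, summed libraries, each guide alone and each library left out.

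The 10 genes and the lists were chosen with earlier results of these data known. Some genes of the lists are not reported here, and the counts, sums and rankings leave them out. Beyond the 10 genes and Cop1, the text names up to 3 called genes with the smallest p and up to 2 uncalled genes with the highest CPM per list and comparison, and the 5 genes nearest to Socs1, Socs3 and Jak2. Il15ra, Ifng, Ifna4, Ifnb1, Ifnl2 and Ifnl3 were named to give levels of a receptor and of interferons. No batch is recorded in the labels.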

Additional observations from a re-analysis of the deposited data

Results flagged for a closer look

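The sgRNA2 and sgRNA1 populations differed in Socs3 and in Cop1 itself, by a test of the difference between the guides (edgeR's quasi-likelihood test, adjusted over all genes). Socs3 was lower with sgRNA2 by a log2 change of -0.29 ± 0.060 (adjusted p = 0.000985) under IFNγ and -0.27 ± 0.072 (adjusted p = 0.0169) in vehicle, in both libraries of each treatment. Cop1 was lower with sgRNA2 by -0.88 ± 0.063 (adjusted p = 1.28e-13) under IFNγ and -0.82 ± 0.062 (adjusted p = 7.51e-13) in vehicle. Whether the Socs3 difference follows the amount of Cop1, the guide or the population was not tested.

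The IFNγ response differed between Cop1-loss and Rosa26 cells, by the test of the interaction, for 8 genes named from the pathway lists. It was larger after Cop1 loss for Il12rb1 (log2 difference 0.88 ± 0.22 (adjusted p = 0.0115)), a call by edgeR that DESeq2 did not make. It was smaller after Cop1 loss for Irf8 (-0.94 ± 0.067 (adjusted p = 8.61e-14)), whose level in vehicle was already higher with Cop1 loss. Among ligands it was smaller for Lif (-0.23 ± 0.041 (adjusted p = 0.000159)) and Csf3 (-0.30 ± 0.034 (adjusted p = 1.47e-08)). For Il11 it differed by -1.32 ± 0.28 (adjusted p = 0.00175), a call that DESeq2 did not make. The response of Il11 after Cop1 loss was -0.24 ± 0.17 and not called. Of 13 tested immediate early and stress genes 9 had a lower response, against 5.74% of all genes called in either direction. Among them were Junb (-0.51 ± 0.039 (adjusted p = 1e-12)), Jun (-0.60 ± 0.056 (adjusted p = 2.3e-10)) and Ier3 (-0.55 ± 0.036 (adjusted p = 1.51e-14)). With the libraries of each group summed, 0 genes of all those tested were called for this difference.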

How the results depend on the processing

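With the libraries of each population summed, the genes called of 10 numbered 1 for Cop1 loss under IFNγ, 1 for Cop1 loss in vehicle, 3 for IFNγ after Cop1 loss and 3 for IFNγ in Rosa26 cells, and over all genes 1443, 902, 1399, 1125 and 0 (difference between responses). With sgRNA1 alone, IFNγ after Cop1 loss gave 4 of the 10 and 2674 of all genes, and the difference between responses 416. DESeq2 called 434 genes for that difference, 735 between the guides under IFNγ and 460 in vehicle. With only the groups compared in the fit, the guides differed in vehicle in 0 of the 10 and 464 of all genes. Leaving out 1 library gave 1 to 4 of the 10 for Cop1 loss under IFNγ (1 without Rosa26 IFNγ replicate 2) and 0 to 1 between the guides in each treatment, and over all genes 348 to 733 for the difference between responses, 422 to 1264 between the guides under IFNγ and 349 to 686 in vehicle. Of the lists, DESeq2 called 3 of the other receptors for Cop1 loss in vehicle (7 by edgeR) and 0 for the difference between responses (1 by edgeR). It called 3 of the other inhibitors for IFNγ in Rosa26 cells (6 by edgeR) and 1 ligase subunit for Cop1 loss in vehicle (2 by edgeR). The causes were not tested.

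No called change of the 10 genes turned its direction in any setting run. Uncalled ones near 0 did, as did Csf3. Leaving out 1 library, Cop1 loss under IFNγ gave -0.077 to 0.0081 for Ifngr1, -0.11 to 0.029 for Ifnar2, -0.026 to 0.012 for Jak1 and -0.042 to 0.14 for Ptpn2, Cop1 loss in vehicle -0.021 to 0.019 for Jak2, IFNγ in Rosa26 cells -0.032 to 0.028 for Jak1 and -0.014 to 0.0042 for Jak2, the difference between responses -0.038 to 0.082 for Ifngr2 and -0.18 to 0.034 for Socs1, and sgRNA2 under IFNγ -0.0075 to 0.12 for Socs3. With sgRNA1 alone Jak2 had 0.019 in vehicle, Ptpn2 -0.0047 under IFNγ, Csf3 0.056 under IFNγ and Socs1 a difference between responses of 0.098. With sgRNA2 alone Jak1 had 0.0021 under IFNγ, Csf3 -0.091 in vehicle and Ifngr2 a difference of -0.060. With only the groups compared, IFNγ in Rosa26 cells gave 0.0051 for Jak1 and 0.0029 for Jak2, and Cop1 loss in vehicle 0.0045 for Jak2. For Cop1 loss in vehicle Jak2 also had 0.00061 with RLE scaling in edgeR, 0.0013 with DESeq2 and 9.9e-05 without the low-count filter. Summed libraries gave 0.00042 for Jak1 with IFNγ in Rosa26 cells. Scaling to library totals shifted the median of all genes by at most -0.042 on the log2 scale.

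With a replicate block, the calls of the 10 genes numbered 4 for Cop1 loss under IFNγ, 4 in vehicle, 8 for IFNγ after Cop1 loss, 6 in Rosa26 cells, 0 for the difference between responses and 1 between the guides in each treatment. Libraries with the same replicate number shared little deviation: over 15 pairs of groups the correlations of same-numbered deviations lay between -0.0509 and 0.0726. Whether same-numbered libraries were prepared together is not given in the labels, and these values cannot tell. Depth limited Socs1 in vehicle most, with 322 to 348 counts per group.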
